A study of Mus musculus with 20 samples.

Results

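The genes described here are the translation factors of the mouse and their regulators, taken as every gene on the array whose symbol starts with Eif (initiation factors and the proteins that bind or modify them) or Eef (elongation factors and their modifying enzymes). A gene was included where a probe set (a group of short probes read as 1 value) carried that symbol and no other. The rule found 53 of the 12393 genes with such a probe set, 42 of them Eif and 11 Eef genes, on 119 probe sets. Where a gene had several probe sets, the one with the highest mean over all arrays stood for it. Of the 53 probe sets that stand for the genes, 20 are of a kind that can bind several transcripts. Of the 53 genes, 49 passed the filter on the mean log2 value and were tested, and Eef1aknmt, Eefsec, Eif2ak3 and Eif2ak4 did not.

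Protein synthesis begins when eIF2 brings the initiator tRNA to the small ribosomal subunit, eIF3 holds that complex together, and the eIF4 factors recruit it to the cap at the 5′ end of a messenger RNA. The Eif4e-binding proteins block the cap-binding protein Eif4e until the growth-sensing kinase mTORC1 phosphorylates them, and the kinases of eIF2 slow initiation under stress. The eEF factors then extend the chain. In skeletal muscle these steps set the rate of protein gain after feeding and exercise, and much of their control acts on the proteins by phosphorylation, which transcript arrays do not read.

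Transcripts of skeletal muscle were read on 20 Affymetrix arrays, 1 per mouse, with 5 mice in each of 4 groups. The groups were untrained wild-type, trained wild-type, untrained transgenic and trained transgenic mice. The series title names endurance training and over-expression of MHC-I. The sources used here give no strain, age, sex, muscle, training schedule or construct, and do not say which gene the abbreviation stands for or which promoter drives it. A free-text field calls every sample transgenic and trained, against the titles and source names, and was not used.

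Signals below are the deposited intensities, on a linear scale. Differences are on the scale of log2(intensity + 66.7), which understates the change of dim genes, and come with the standard error (SE) of a single limma model over all 20 mice. A gene is called where its p-value, adjusted by Benjamini and Hochberg over all 13575 probe sets tested, is under 0.05. The spread is that between the 5 mice of a group, and levels of different probe sets are not compared. In whole muscle, fewer cells of a type and less RNA per cell cannot be told apart.

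The arrays had median intensities between 156.7 and 174.9. All 8 marker genes of the muscle fibre were bright, with mean intensities between 10712 and 18414. MHC-I could stand for class I of the major histocompatibility complex, a family of genes, or for a myosin heavy chain. Of the genes looked at, none was higher in mice labelled transgenic, averaged over training. H2-K1 and H2-D1 of the histocompatibility complex differed by -0.12 ± 0.15 (SE, adjusted p = 0.724) and -0.10 ± 0.16 (SE, adjusted p = 0.777). Myh7, the slow myosin heavy chain, stood at -1.27 ± 0.26 (SE, adjusted p = 0.0201). These probe sets may not read the transgene, so the arrays do not check the genotype labels, and the groups are called "labelled transgenic" below. The summed slow-fibre markers ranged from 2809 to 5497 in mice labelled transgenic and from 5013 to 17324 in wild-type mice. The summed macrophage markers ranged from 1622 to 2044 in trained wild-type mice, against 1290.0 to 1769 in the other 15. Their part in the results below was not tested. Arrays of mice wtt-137 and TGT-133, both trained, had the most empty cells, 822 and 386 of 22690, and results that turn on them are given without them.

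Training went with lower transcript levels of 4 translation factors when both genotypes were averaged: Eif4b, Eif3e, Eif3a and Eif4ebp1. These were 4 of the 49 genes tested (8.16%), against 4.99% of all probe sets. All 4 were lower, and 35 of the 49 genes had a difference below 0, with a median of -0.06 against 0.00 over all probe sets, of which 49.3% were below 0. The count of 4 fell to 1, Eif4b, with arrays centred on their medians (3.01% of all probe sets called) and with no filter (1.98%). It fell to 2, Eif4b and Eif2d, without wtt-137 and TGT-133 (3.01%). Leaving out 1 mouse at a time, it fell to 1 for 11 of the 20 mice and to 2 for 2 others, and Eif4b was called each time. After quantile normalization 5 of the 49 were called (6.22% of all probe sets), and 1 of those, Eif4e3, was higher. In that fit 32 of the 49 genes had a difference below 0, with a median of -0.04. In mice labelled transgenic alone 1 gene, Eif5, was called (2.04%, against 0.309% of all probe sets). There 39 of the 49 genes, with a median of -0.08, had a difference below 0 (79.6%, against 48.3% of all probe sets). After quantile normalization 33 did, with a median of -0.05. Without mouse TGUT-145 limma called 7 of the 49 genes for training averaged over genotypes, when 9.47% of all probe sets were called, and 4 in mice labelled transgenic, when 5.63% were. Without TGUT-146 it called 2 in mice labelled transgenic, when 2.05% of all probe sets were called. In wild-type mice alone limma called none of the 49 and 0% of all probe sets. At an unadjusted p under 0.05, 3 of the 49 genes and 1069 of the 13575 probe sets passed there. In these mice 27 of the 49 genes (55.1%) had a difference below 0, against 50.1% of all probe sets. After quantile normalization 30 did, with a median of -0.01.

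**Figure D1:**
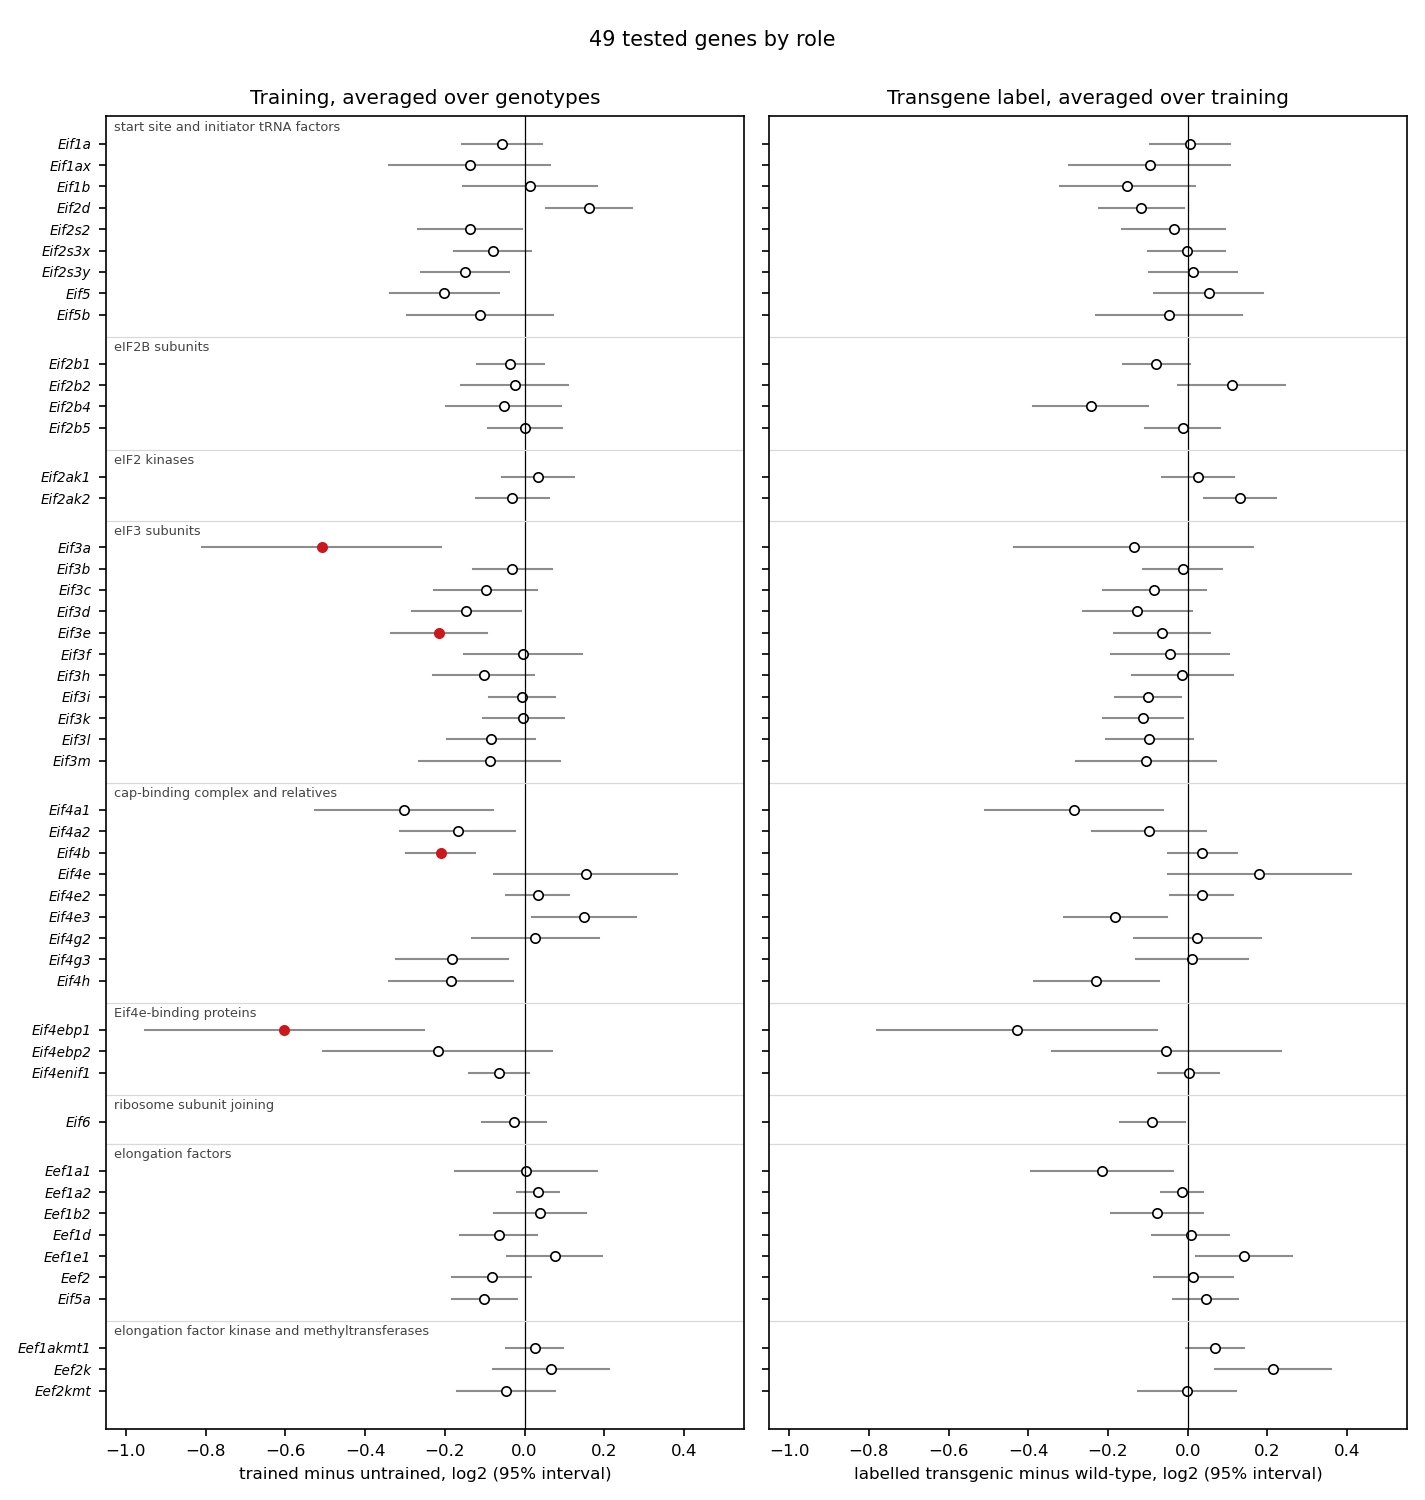
Difference of each of the 49 tested genes, in log2 units with its 95% interval, grouped by role: trained minus untrained mice averaged over genotypes (left) and mice labelled transgenic minus wild-type mice averaged over training (right). Filled red points are the 4 genes called, all of them left of 0 for training, and no gene is called for the transgene label.

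The bases just before the start of transcription are given for the called genes that RefSeq's promoter table (build GRCm38.p6) holds, 3 of the 5, because these genes were called lower in trained mice. Each run ends at the base before the start and reads 5′ to 3′ on the gene's own strand. Eif3a lies on chr19:60790694-60790843 (minus strand), Eif4b on chr15:102073623-102073772 (plus strand) and Eif5 on chr12:111537951-111538100 (plus strand).
Eif3a: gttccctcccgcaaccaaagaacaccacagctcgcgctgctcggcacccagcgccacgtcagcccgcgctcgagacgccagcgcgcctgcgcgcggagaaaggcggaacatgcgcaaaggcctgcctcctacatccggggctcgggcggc
Eif4b: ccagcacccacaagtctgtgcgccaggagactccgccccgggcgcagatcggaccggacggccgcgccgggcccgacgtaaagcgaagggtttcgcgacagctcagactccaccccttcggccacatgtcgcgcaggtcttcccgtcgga
Eif5: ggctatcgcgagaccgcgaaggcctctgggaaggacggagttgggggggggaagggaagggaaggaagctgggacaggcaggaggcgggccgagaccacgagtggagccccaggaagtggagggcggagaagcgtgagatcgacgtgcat
All 3 stretches are rich in G and C, at 70.7%, 69.3% and 66.7%. In the 250 bases before the start, 4 motifs were searched on both strands: the E-box CACGTG that Myc binds, CCGGAAG of the ETS factors, the Foxo motif TGTTTAC and the cAMP response element TGACGTCA. None of these letters stood in the windows of Eif3a, Eif4b or Eif5.

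Among all 43 translation factors in the promoter table, 10 (23.3%) held the E-box, against 10.3% of the 6828 genes tested on the array and 6.86% of all 27025 genes in the table. The ETS letters stood in 9 (20.9%, against 14.9% of the genes tested), the Foxo letters in 1 (2.33%, against 2.68%) and the cAMP response element in 0 (against 2.84%). Of the 10 genes with an E-box, Eef1aknmt, Eif1b, Eif3f, Eif3k and Eif5a are not shown. For the other 5 the E-boxes are given in capitals with their flanks. Eif4e holds 2 of them, and the one nearer the start is shown. They lie at chr10:81176576-81176605 (plus strand) for Eef2, chr7:120842788-120842817 (plus strand) for Eef2k, chr3:138527192-138527221 (plus strand) for Eif4e, chr5:134639488-134639517 (minus strand) for Eif4h and chr11:69672595-69672624 (minus strand) for Eif4a1.
Eef2: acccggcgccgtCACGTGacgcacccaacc
Eef2k: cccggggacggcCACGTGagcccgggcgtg
Eif4e: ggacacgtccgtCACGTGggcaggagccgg
Eif4h: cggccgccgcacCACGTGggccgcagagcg
Eif4a1: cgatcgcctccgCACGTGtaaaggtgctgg
None of these 5 genes was called in any comparison. The table has no entry for Eef1akmt1, Eef1d, Eif1a, Eif3e, Eif3h, Eif3i, Eif4e3, Eif4ebp1, Eif4g2 and Eif6.

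Eif4b, which stimulates the helicase that unwinds messenger RNA for scanning, was the gene whose training difference held most widely. Eif4b read 1527, 1583, 1465, 1524 and 1382 in untrained and 1334, 1309, 1283, 1261 and 1173 in trained wild-type mice. It read 1590.2, 1418, 1456, 1492 and 1659 in untrained and 1237, 1349, 1372, 1251 and 1391 in trained mice labelled transgenic. Within each genotype every trained mouse was below every untrained mouse. How many of all probe sets part the groups in this way was not counted, here or for the genes below. Over the 20 mice, 9 of the 10 trained mice were below all untrained mice, and TGT-143 at 1391 was just above WTUT-142 at 1382. Averaged over genotypes the difference was -0.21 ± 0.04 (SE, 95% interval -0.30 to -0.12, adjusted p = 0.0107), a 1.16-fold lower level. It was -0.22 ± 0.06 (SE) in wild-type mice (adjusted p = 0.244) and -0.20 ± 0.06 (SE) in mice labelled transgenic (adjusted p = 0.0964). The call held in all 20 fits that left out 1 mouse, with adjusted p between 0.0062 and 0.0275. It also held in all 13 other settings, which included a fit without wtt-137 and TGT-133. Of the 2 further probe sets of Eif4b, 1 was called, at -0.30 ± 0.06 (adjusted p = 0.0109), and the other stood at -0.14 ± 0.04 (adjusted p = 0.0726).

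**Figure D2:**
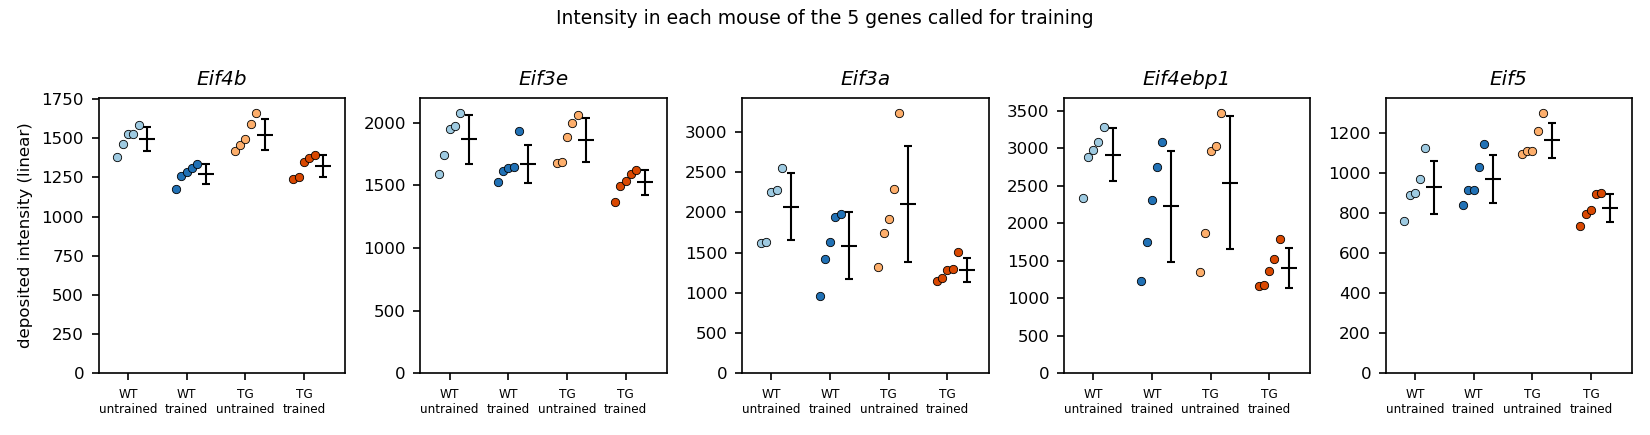
Deposited intensity (linear axis from 0) in each of the 20 mice of the 5 genes called for training, by group (WT, wild-type; TG, labelled transgenic), with the group mean and SD as a bar beside the points (n = 5). Eif4b shows no overlap between untrained and trained mice within either genotype, and Eif5 and Eif3e show none in mice labelled transgenic. How many of all probe sets do so was not counted.

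The other 8 members of the cap-binding complex and its relatives gave no call. For training averaged over genotypes 1 of the 9 together (11.1%) was called, against 4.99% of all probe sets. Of the 9, 5 (55.6%) had a training difference below 0, against 49.3% of all probe sets. An unadjusted p under 0.05 was found for 6 of the 9 (66.7%), against 20.7% of all probe sets. Eif4a1 and Eif4a2, the helicases that Eif4b stimulates, stood at -0.30 ± 0.11 (SE, adjusted p = 0.102) and -0.17 ± 0.07 (SE, adjusted p = 0.163). The 3 probe sets of Eif4a1 lay between -0.37 and -0.23, none of them called. Eif4g3, a scaffold of the complex, stood at -0.18 ± 0.07 (SE, adjusted p = 0.121). Above 0 stood Eif4e3, a cap-binding relative of Eif4e, at 0.15 ± 0.06 (SE, adjusted p = 0.171).

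Eif4e itself, the cap-binding protein, read 933, 792, 964, 755 and 881 in untrained and 961, 993, 1378, 716 and 925 in trained wild-type mice. Eif4e read 832, 750.3, 1228, 1312 and 953 in untrained and 1349, 951, 922, 1208 and 1137 in trained mice labelled transgenic. The 4 groups overlapped, and the training difference of 0.15 ± 0.11 (SE, 95% interval -0.08 to 0.38) was not called (adjusted p = 0.475).

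Eif4h, a partner of the same helicases that resembles Eif4b, was lowest in the trained mice labelled transgenic. Eif4h read 1141, 1410.5, 1157, 1168 and 1531 in untrained and 1103, 1108, 953, 1317 and 1472 in trained wild-type mice. It read 1206, 1006, 1104, 1074 and 1338 in untrained and 858, 979.9, 931, 987 and 939 in trained mice labelled transgenic. Every trained mouse labelled transgenic was below every untrained one, while the wild-type groups overlapped. Neither the training difference of -0.19 ± 0.07 (SE, adjusted p = 0.156) nor the difference by genotype label of -0.23 ± 0.07 (SE, adjusted p = 0.125) was called.

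Eif4ebp1, which encodes the binding protein 4E-BP1 that blocks Eif4e, had the largest training difference of the 49 genes. Eif4ebp1 read 2985, 3285, 2346, 2881 and 3091 in untrained and 2315, 1759, 1234, 2749 and 3084 in trained wild-type mice. It read 3035, 3471, 1353, 1871 and 2969.9 in untrained and 1159, 1526, 1797, 1174 and 1366 in trained mice labelled transgenic. The 5 trained mice labelled transgenic were all low, and so were wtt-137, wtt-134, TGUT-145 and TGUT-146. Trained and untrained mice overlapped in both genotypes. In wild-type mice the trained WTT-141 and WTT-144 lay within the range of the untrained ones. In mice labelled transgenic the untrained TGUT-145 lay within the range of the trained ones. Averaged over genotypes the difference was -0.60 ± 0.17 (SE, 95% interval -0.95 to -0.25, adjusted p = 0.0436), a 1.52-fold lower level. It was -0.44 ± 0.24 (SE) in wild-type mice (adjusted p = 0.709) and -0.77 ± 0.24 (SE) in mice labelled transgenic (adjusted p = 0.108). Its 2 further probe sets stood at -0.77 ± 0.23 (adjusted p = 0.0603) and -0.44 ± 0.16 (adjusted p = 0.109) and were not called. The call of Eif4ebp1 was lost without any 1 of 14 mice: WTUT-130, WTUT-135, WTUT-138, WTUT-142, WTT-129, wtt-134, wtt-137, TGUT-131, TGUT-139, TGUT-147, TGT-128, TGT-132, TGT-140 and TGT-143. Adjusted p then lay between 0.0551 and 0.0892, and without TGUT-145, the lowest untrained mouse, it was 0.0083. Without wtt-137 and TGT-133 together the difference was -0.55 (adjusted p = 0.0580).

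Eif4ebp2, which encodes the related 4E-BP2, gave no call. Eif4ebp2 read 1238, 1443, 883, 843 and 1199.8 in untrained and 712, 826, 789, 878 and 1345 in trained wild-type mice. It read 1292, 992, 1222, 564 and 1134 in untrained and 932, 993, 766, 1020.4 and 812 in trained mice labelled transgenic. The groups overlapped, and WTT-144 stood well above the other trained wild-type mice. The training difference was -0.22 ± 0.14 (SE, adjusted p = 0.402), while its 3 further tested probe sets stood at 0.04, 0.06 and -0.11, so the probe sets differed in sign. Eif4enif1, which shuttles Eif4e into the nucleus, stood at -0.06 ± 0.04 (SE, adjusted p = 0.345).

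**Figure D3:**
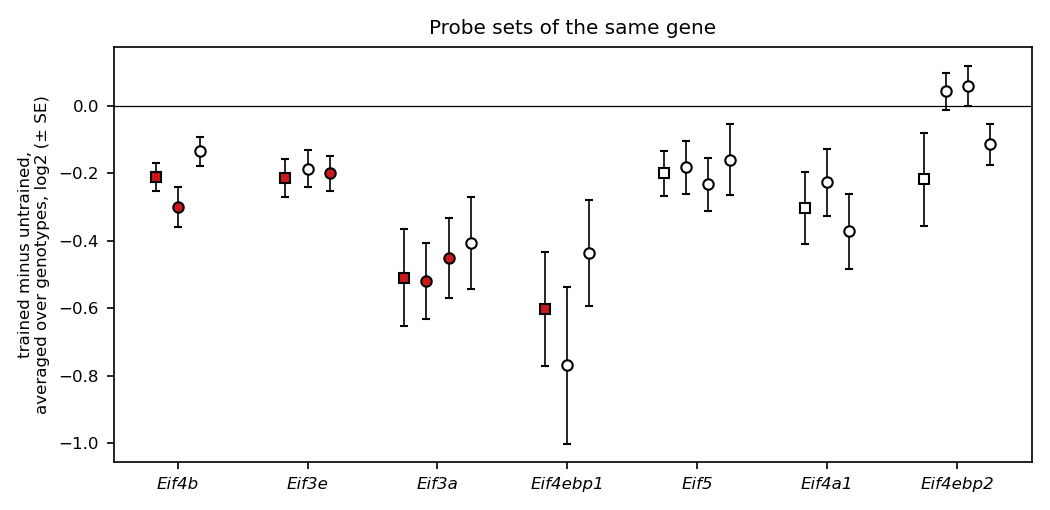
Training difference averaged over genotypes, in log2 units ± SE, of each tested probe set of 7 genes. Squares are the probe sets that stand for the gene and red marks are called. All probe sets of Eif4b, Eif3e, Eif3a, Eif4ebp1, Eif5 and Eif4a1 lie below 0, and those of Eif4ebp2 lie on both sides.

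The 11 subunits of eIF3, the scaffold that joins the small ribosomal subunit to the cap-binding complex, all had a training difference below 0, against 49.3% of all probe sets, with a median of -0.09. Of the 11, 2 were called (18.2%, against 4.99% of all probe sets). After quantile normalization 8 of the 11 lay below 0, with a median of -0.07. In wild-type mice alone 7 of the 11, with a median of -0.03, lay below 0 (63.6%, against 50.1% of all probe sets). There 0 had an unadjusted limma p under 0.05, against 7.87% of all probe sets. In mice labelled transgenic all 11, with a median of -0.15, lay below 0, against 48.3% of all probe sets. There 4 (36.4%) had an unadjusted limma p under 0.05, against 17.4% of all probe sets. No difference between these 2 responses was called for an eIF3 subunit. Eif3a, the largest subunit, read 2259, 2550.3, 1626, 1633 and 2281 in untrained and 1627, 1419.9, 962, 1946 and 1977 in trained wild-type mice. It read 3235, 2289, 1743, 1325 and 1916 in untrained and 1283, 1514, 1299.6, 1142 and 1184 in trained mice labelled transgenic. The groups overlapped in both genotypes, with wtt-137 lowest of all, and all 10 trained mice were below the median of the untrained ones. Eif3a differed by -0.51 ± 0.14 (SE, 95% interval -0.81 to -0.21, adjusted p = 0.0464), a 1.42-fold lower level. Its 3 further probe sets stood at -0.52, -0.45 and -0.41, and 2 of them were called. The call of the probe set that stands for Eif3a was lost without any 1 of 14 mice: WTUT-130, WTUT-135, WTUT-142, WTT-129, wtt-134, wtt-137, TGUT-131, TGUT-139, TGUT-147, TGT-128, TGT-132, TGT-133, TGT-140 and TGT-143. Adjusted p then lay between 0.0509 and 0.0951. Without wtt-137 and TGT-133 together the difference was -0.43 (adjusted p = 0.0929).

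Eif3e, another subunit, read 1947, 2075, 1739.8, 1592 and 1971 in untrained and 1611, 1635, 1525, 1644 and 1933 in trained wild-type mice. It read 1996, 1681, 1884, 1683 and 2062 in untrained and 1496, 1625, 1370.4, 1591 and 1532 in trained mice labelled transgenic. Every trained mouse labelled transgenic was below every untrained one, while the wild-type groups overlapped. The averaged difference was -0.21 ± 0.06 (SE, 95% interval -0.33 to -0.09, adjusted p = 0.0382), a 1.16-fold lower level. Its 2 further tested probe sets stood at -0.20, which was called, and -0.19, which was not; all 3 may bind several transcripts. The call of Eif3e was lost without any 1 of 13 mice: WTUT-130, WTUT-135, WTUT-142, WTT-129, wtt-134, wtt-137, WTT-141, TGUT-131, TGUT-147, TGT-128, TGT-133, TGT-140 and TGT-143. Adjusted p then lay between 0.0532 and 0.0776, and without wtt-137 and TGT-133 together it was 0.101. Of the other 9 subunits, Eif3d had the largest difference, -0.15 ± 0.07 (SE, adjusted p = 0.207), and Eif3f, Eif3i and Eif3k were within 0.01 of 0.

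Within the groups, mice with little Eif4ebp1 tended to have little Eif3a. Over the deviations of the 20 mice from their group means, Pearson's r was 0.757 (permutation p = 0.00169, 0.0169 after adjustment over 10 pairs of called genes) and Spearman's rho was 0.845 (permutation p = 0.0001, adjusted 0.001). Without the 2 mice farthest from the median of Eif3a, r was 0.696. Among the other 9 pairs none passed by r, and Eif3e with Eif5 passed by rho (0.647, adjusted p = 0.0244, permutation test; r = 0.569, adjusted p = 0.0748). Eif4b deviated together with neither Eif3a (r = 0.0411) nor Eif4ebp1 (r = 0.127). Pairs over all probe sets were not measured. Of the mice low in both Eif4ebp1 and Eif3a, wtt-137, TGUT-145 and TGUT-146 had the lowest array weights in limma (0.47, 0.38 and 0.46). The others low in both, WTUT-136, WTUT-138, wtt-134, TGT-140 and TGT-143, had weights between 0.73 and 1.60. A part of array quality in this relation was not tested.

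**Figure D4:**
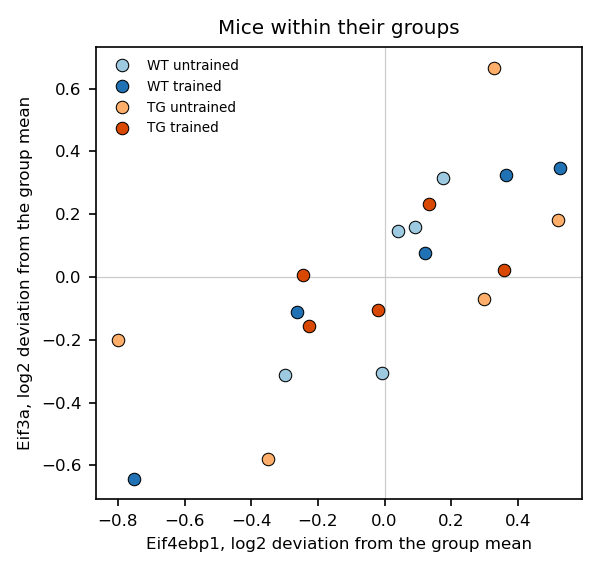
Deviation of each of the 20 mice from its group mean, in log2 units, for Eif4ebp1 (horizontal axis) and Eif3a (vertical axis), coloured by group. The points rise from lower left to upper right (r = 0.757). Each of the 4 groups is centred on its own mean, so each must have mice on both sides of 0.

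Eif5, which triggers GTP hydrolysis by eIF2 at the start codon, was lower after training in mice labelled transgenic. Eif5 read 887, 967, 900.3, 759 and 1124 in untrained and 839, 915, 915, 1142 and 1028 in trained wild-type mice. It read 1297, 1092, 1108, 1207 and 1108 in untrained and 812, 893, 734, 898 and 793 in trained mice labelled transgenic. The wild-type groups overlapped, while every trained mouse labelled transgenic was below every untrained one. The training difference was -0.46 ± 0.09 (SE) in mice labelled transgenic (95% interval -0.66 to -0.27, adjusted p = 0.0453), a 1.38-fold lower level, and 0.06 ± 0.09 (SE) in wild-type mice (adjusted p = 0.97). The difference between these 2 responses was -0.52 ± 0.13 (SE, 95% interval -0.80 to -0.25). It had the smallest unadjusted p of the 49 genes, 0.00079, and an adjusted p of 0.9999, so it was not called. The 3 further probe sets of Eif5 stood at -0.50, -0.35 and -0.34 in mice labelled transgenic, none of them called. The call of Eif5 was lost without any 1 of 8 of the 10 mice labelled transgenic: TGUT-131, TGUT-139, TGUT-147, TGT-128, TGT-132, TGT-133, TGT-140 and TGT-143. Adjusted p then lay between 0.0568 and 0.149. Without wtt-137 and TGT-133 together the difference was -0.42 (adjusted p = 0.0505).

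Among the 9 start site and initiator tRNA factors 7 (77.8%) had an averaged training difference below 0, against 49.3% of all probe sets. None was called, against 4.99%, and 4 (44.4%) had an unadjusted p under 0.05, against 20.7%. Eif2d, which delivers tRNA to the ribosome independently of eIF2, stood at 0.16 ± 0.05 (SE, adjusted p = 0.0726), and Eif2s2, the beta subunit of eIF2, at -0.14 ± 0.06 (SE, adjusted p = 0.217). Every trained wild-type mouse was above every untrained one for Eif2d, while the groups labelled transgenic overlapped. Without wtt-137 and TGT-133 Eif2d was called and higher. Its 2 further tested probe sets stood at 0.07 ± 0.06 (SE, adjusted p = 0.597) and 0.05 ± 0.06 (SE, adjusted p = 0.709) over all 20 mice.

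Eif2s3x and Eif2s3y encode the gamma subunit of eIF2 on the X and on the Y chromosome. Eif2s3x read 834, 856, 801, 755 and 921 in untrained and 821, 837, 851, 838 and 887 in trained wild-type mice. It read 883, 848, 931, 831 and 998 in untrained and 752, 764, 711, 809 and 884 in trained mice labelled transgenic. The trained mice labelled transgenic were lower as a group, with TGT-143 inside the range of the untrained ones, at -0.18 ± 0.07 (SE, adjusted p = 0.155). Eif2s3y read 213, 214, 188.2, 149.4 and 238 in untrained and 187.8, 177.5, 179.7, 197.9 and 206 in trained wild-type mice. It read 217, 196.2, 235, 232 and 221 in untrained and 153.2, 184.9, 159.2, 189.9 and 189.8 in trained mice labelled transgenic. Every trained mouse labelled transgenic was below every untrained one for Eif2s3y, yet the difference of -0.25 ± 0.07 (SE) was not called (adjusted p = 0.101). No mouse stood apart from the rest, and the labels give no sex.

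The guanine nucleotide exchange factor eIF2B recharges eIF2. Of its 4 tested subunits 3 (75%) had an averaged training difference below 0, against 49.3% of all probe sets. None of the 4 was called, against 4.99% of all probe sets. The largest difference was by genotype label, in Eif2b4, the delta subunit. Eif2b4 read 584, 714, 689, 771 and 739 in untrained and 619.8, 649.6, 584, 707 and 744 in trained wild-type mice. It read 554, 626, 551, 431 and 716 in untrained and 535, 547, 551, 545 and 599.9 in trained mice labelled transgenic. The trained mice labelled transgenic lay close together, and the groups overlapped. Averaged over training, mice labelled transgenic differed by -0.24 ± 0.07 (SE, 95% interval -0.39 to -0.10, adjusted p = 0.078), the smallest p of the 49 genes in that comparison, and were not called. For Eif2b1 every trained mouse labelled transgenic was below every trained wild-type mouse with a value. The closest were TGT-132 at 653.7 and wtt-134 at 654.2.

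Neither of the 2 tested eIF2 kinases was called for averaged training or genotype label, against 4.99% and 1.23% of all probe sets. Eif2ak2, the kinase PKR that double-stranded RNA activates, stood at 0.13 ± 0.04 (SE) by genotype label (adjusted p = 0.13). Every trained mouse labelled transgenic was above every trained wild-type mouse for Eif2ak2, while the untrained groups overlapped. Eif2ak1, the haem-regulated kinase, stood at 0.03 ± 0.04 (SE) for training (adjusted p = 0.742). Eif2ak3, the kinase PERK of the endoplasmic reticulum, fell just short of the filter, with a mean log2 value of 7.58 against the limit of 7.59, and was not tested. Eif2ak3 read 81.1, 72.9, 154.6, 145.4 and 120.1 in untrained and 151.5, 135.5, 158.9, 136.9 and 141.9 in trained wild-type mice. It read 63.9, 129.6, 144.2, 70.1 and 131.9 in untrained and 154.8, 178.2, 175.0, 64.2 and 159.7 in trained mice labelled transgenic. The groups overlapped, and WTUT-130, WTUT-135, TGUT-131, TGUT-146 and TGT-140 were low.

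None of the 7 tested elongation factors was called for averaged training or genotype label either, against the same 4.99% and 1.23% of all probe sets. Eef1a2, the form of the tRNA carrier that adult muscle expresses, varied least of the named genes. Eef1a2 read 8857, 8880.0, 8545, 8481 and 8854 in untrained and 8622, 8543, 8714, 9119.5 and 9324 in trained wild-type mice. It read 8202, 8480.0, 8673, 8459 and 9042 in untrained and 9331, 8414, 8681, 8710.3 and 9046 in trained mice labelled transgenic. The groups overlapped throughout, with 0.03 ± 0.03 (SE) for training (95% interval -0.02 to 0.09, adjusted p = 0.517). Eef1a1, the form of most other tissues, read 2298, 2001, 2537, 2849 and 2999 in untrained and 2936, 2340.4, 2988, 2746 and 2720.2 in trained wild-type mice. It read 2396, 2388, 2262, 2105 and 2581 in untrained and 1679, 2047, 2854, 2396 and 1992 in trained mice labelled transgenic. TGT-128 was lowest, the groups overlapped, and by genotype label Eef1a1 stood at -0.22 ± 0.09 (SE, adjusted p = 0.203).

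Eef2, which moves the ribosome along the messenger RNA, read 5146, 5484, 4598, 4956 and 5470.1 in untrained and 5186, 4696, 4461, 5295 and 4649 in trained wild-type mice. It read 5608, 4720.5, 5225, 4812 and 5636 in untrained and 4637, 5342, 4761, 5128 and 4572 in trained mice labelled transgenic. These groups overlapped, with -0.08 ± 0.05 (SE) for training (95% interval -0.18 to 0.02, adjusted p = 0.347). Eef2k, the kinase that inactivates Eef2, read 243, 221, 243, 203 and 199.6 in untrained and 223, 231, 283, 206 and 243 in trained wild-type mice. It read 222, 201, 345, 281 and 317 in untrained and 287, 259.7, 295, 263 and 313 in trained mice labelled transgenic. The trained mice labelled transgenic all exceeded every wild-type mouse but wtt-137, while the untrained ones overlapped with wild-type mice. The difference by genotype label of 0.21 ± 0.07 (SE) was not called (adjusted p = 0.126).

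Eef1b2, an exchange factor that recharges the tRNA carrier, read 1749, 1877, 1735, 1519 and 1869 in untrained and 1812, 1846, 1804, 1903 and 2390.0 in trained wild-type mice. It read 1773, 1706, 1823, 1652 and 1987 in untrained and 1593, 1705, 1669, 1856 and 1679 in trained mice labelled transgenic. WTT-144 stood above all others. The responses to training of the 2 genotypes differed by -0.22 ± 0.11 (SE, unadjusted p = 0.0647, adjusted p = 0.9999). Eif5a, which helps the ribosome past stretches that stall it, stood at -0.10 ± 0.04 (SE) for training (adjusted p = 0.135).

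By genotype label no translation factor was called. Averaged over training limma called 0 of the 49 genes, against 1.23% of all probe sets, and 13 (26.5%) had an unadjusted p under 0.05, against 17.3% of all probe sets. In untrained mice it called 0, against 0.11% of all probe sets, and 5 of the 49 genes (10.2%) had an unadjusted p under 0.05, against 8.13%. In trained mice it called 0, against 0.0516%, and 11 (22.4%) passed unadjusted, against 12.5%. Averaged over training 31 of the 49 differences, with a median of -0.04, lay below 0 (63.3%, against 48.3% of all probe sets). After quantile normalization only 22 did, with a median of 0.01. All 11 eIF3 subunits lay below 0 by genotype label, with a median of -0.10, and 7 of them did after quantile normalization. Averaged over training limma called 2 genes without wtt-137 (Eif2b4 and Eif4h; 3.87% of all probe sets), 1 without TGUT-147 (Eif2b4; 2.48%) and 1 without WTUT-138 (Eif2ak2; 1.09%). The comparisons by genotype label and by training use the same mice, so their values are not independent.

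**Figure D5:**
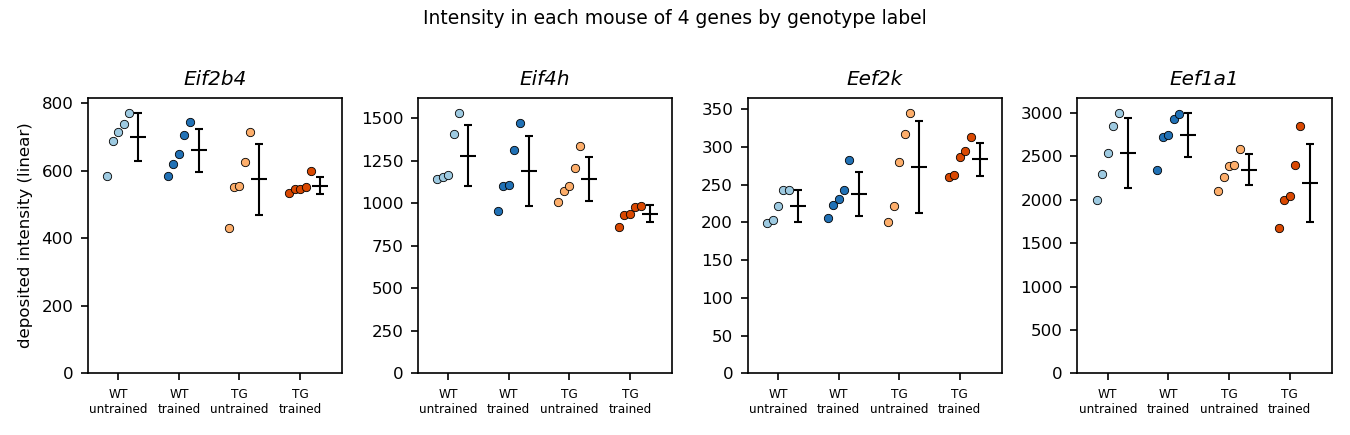
Deposited intensity (linear axis from 0) in each mouse of Eif2b4, Eif4h, Eef2k and Eef1a1, by group (WT, wild-type; TG, labelled transgenic), with the group mean and SD as a bar (n = 5). The wild-type and transgenic groups overlap for all 4 genes, and none was called.

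No translation factor was called for a training response that differed by genotype label: limma called 0 of the 49 genes and 0% of all probe sets, and 2 genes, Eif5 and Eif2s3x, had an unadjusted p under 0.05 (4.08%, against 2.91% of all probe sets). Of the 49 differences of responses 37 lay below 0 (75.5%, against 50.9% of all probe sets), with a median of -0.07 against 0.00 over all probe sets. After quantile normalization 32 did, with a median of -0.04.

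Other genes of translational control were read from lists of the same pathway. For training averaged over genotypes, 2.41% of all probe sets were called higher and 2.59% lower, and 49.3% lay below 0. Of 18 tested genes of mTORC1 signalling 12 lay below 0, and 0 were called higher and 1 lower (5.56%): Larp1, which holds back messenger RNAs of ribosomal proteins, at -0.31 ± 0.06 (adjusted p = 0.0078). Listed here for the integrated stress response, the programme downstream of the eIF2 kinases, were 22 tested genes. Of these 14 lay below 0 and 8 above, and 0 were called higher and 3 lower (13.6%). These were Cdkn1a, a cell cycle inhibitor, at -1.13 ± 0.25 (adjusted p = 0.0164), Ppp1r15b, which helps dephosphorylate eIF2, at -0.33 ± 0.09 (adjusted p = 0.0378), and Atf4, the central transcription factor of the response, at -0.28 ± 0.08 (adjusted p = 0.0369). A place in this list does not tell which pathway set a gene's level. By genotype label 2 of these 22 were called lower (9.09%, against 0.906% of all probe sets), Atf4 at -0.33 ± 0.08 (adjusted p = 0.0360) and Vldlr, a lipoprotein receptor, at -0.41 ± 0.10 (adjusted p = 0.0497).

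Of 14 factors for termination, poly(A) binding and ribosome recycling 9 lay below 0 and 5 above after training, and 0 were called higher and 2 lower (14.3%), Gspt1, a release factor, at -0.27 ± 0.07 (adjusted p = 0.0316) and Pelo, which rescues stalled ribosomes, at -0.23 ± 0.06 (adjusted p = 0.0267). Of the 10 listed factors of mitochondrial translation 5 were tested here. Of these 4 lay above 0 and 1 below, and 2 were called higher and 0 lower, the initiation factor Mtif2 at 0.19 ± 0.04 (adjusted p = 0.0182) and the elongation factor Tufm at 0.23 ± 0.06 (adjusted p = 0.0250). Of 13 Foxo and glucocorticoid-responsive genes, which include the muscle ubiquitin ligases and which Foxo3 represents here at -0.52 ± 0.14 (adjusted p = 0.0427), 1 was called lower (7.69%) and 0 higher. All 13 lay below 0, with a median of -0.45. In wild-type mice alone 9 of the 13, with a median of -0.17, lay below 0 (69.2%, against 50.1% of all probe sets). There 0 had an unadjusted limma p under 0.05, against 7.87% of all probe sets. In mice labelled transgenic all 13, with a median of -0.76, lay below 0, against 48.3% of all probe sets. There 12 (92.3%) had an unadjusted limma p under 0.05, against 17.4% of all probe sets. No difference between these 2 responses was called.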

How the data were processed

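The deposited table holds 1 intensity per probe set and array on a linear scale. How the authors summarised and scaled the probes is not given in the sources used here, and the values are used as deposited. Of 22690 probe sets 64 controls were left out. The analysis took log2(intensity + 66.7), where 66.7 is the 20th percentile of the table, and kept 13575 probe sets with a mean log2 value above the 40th percentile of those means (7.59). Group means were fitted in 1 model with limma 3.58.1 (R 4.3.3; eBayes with a variance trend), with 7 contrasts, two-sided tests and Benjamini-Hochberg adjustment over all 13575. The script was tested on simulated data. Gene names come from the platform annotation (20380 probe sets with 1 symbol, 691 with several, 1555 with none). Left out by the rule were 6 probe sets with several symbols that include an Eif or Eef gene. Empty cells, 1745 in all and 3 among the genes described (in Eef2kmt, Eif2b1 and Eif2b2), were treated as missing. The number of arrays limits the precision. Correlations used 100000 permutations of mice within groups, two-sided.

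The genes and the gene lists were chosen with earlier results of these data known. Values in every mouse are given for genes called in any contrast, for Eif4ebp1, Eif4ebp2, Eif4e, Eef1a1, Eef1a2, Eef2, Eef2k, Eif2s3x, Eif2s3y and Eif2ak3, and for the 3 genes with the smallest p in each averaged contrast and in the interaction. For the other genes up to 3 examples a role with the largest differences are named, and of each list up to 2 called genes a direction. Alternatives were other scalings, added constants, filters and variance models, a covariate for the Gapdh 3′ to 5′ ratio, other probe sets and left-out mice.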

Additional observations from a re-analysis of the deposited data

Results flagged for a closer look

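In 68 groups of 5 mice, 4 groups held 1 value far from the other 4 by Dixon's criterion, which chance meets in about 1 group in 20. Mouse WTT-144 read 1345 for Eif4ebp2, against at most 878 in the other trained wild-type mice, and 2390.0 for Eef1b2, against at most 1903. Mouse TGT-140 read 64.2 for Eif2ak3, against at least 155 in the other trained mice labelled transgenic. Mouse TGT-143 read 599.9 for Eif2b4, against at most 551 in the same group.

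Eif5 was picked out because every untrained mouse labelled transgenic lay above the mean of untrained wild-type mice, and every trained one lay below the mean of trained wild-type mice. The training difference in mice labelled transgenic minus that in wild-type mice was -0.52 on the log2 scale. The limma test of that difference gave an unadjusted p of 0.00079 and an adjusted p of 0.9999.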

How the results depend on the processing

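Every fit kept the direction of the 5 called genes, and the Eif4b call held in every fit of its own probe set. Beside each count of translation factors called stands, in brackets, the share of all probe sets called in the same fit. For training averaged over genotypes the count of 4 (4.99%) became 1 with arrays centred on their medians (3.01%), 1 with no filter (1.98%), 16 with array weights (20.4%), 7 with the Gapdh ratio as a covariate (9.52%), 2 of 31 genes without probe sets that can bind several transcripts (3.77%), 2 without wtt-137 and TGT-133 (3.01%), and 1 to 7 without 1 mouse (2.06% to 9.47%). For training in mice labelled transgenic the count of 1 (0.309%) became 2 after quantile normalization (1.13%), 0 with centred arrays (0.081%), 0 with no filter (0.0265%), 14 with array weights (18.2%), 3 with the Gapdh covariate (2.73%), 0 without probe sets that can bind several transcripts (0.0225%), 0 when only the compared groups were fitted (0.00737%), 0 without wtt-137 and TGT-133 (0.921%), and 0 to 4 without 1 mouse (0.0147% to 5.63%). With array weights the 0 for the transgene label became 1 in untrained mice (0.692%), 8 in trained mice (7.48%) and 3 on average (4.88%). It became 0 to 2 on average without 1 mouse (0.582% to 3.87%). Leaving out probe sets or mice leaves fewer genes or samples, and the cause of the other shifts was not tested. Array weights ranged from 0.38 for TGUT-145 to 2.97 for WTT-129. Calls of the other 4 genes held in part of the settings: Eif3a in 9 of 13, Eif3e in 9 of 12, Eif4ebp1 in 10 of 13 and Eif5 in 9 of 14, beside 6 of 20, 7 of 20, 6 of 20 and 2 of 10 fits without 1 mouse. No paired analysis was possible because the mouse numbers in the labels are shared by no 2 groups. The filter on low values leaves 4 of the 53 genes untested.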
